A study of Mus musculus with 4 samples.

Results

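Barcodes with RNA of cells near the meiotic divisions were picked out of the mouse testis by 4 transcripts of the division machinery. These transcripts alone do not tell spermatocytes from cells past the divisions. The group held 1023 of the 29968 barcodes kept, or 3.41% (exact 95% interval 3.21 to 3.63%). That interval covers counting error only, and the share ranged from 2.49 to 4.06% over the 4 libraries. A barcode entered this division gate when it had at least 500 detected genes, at most 10% mitochondrial UMI (unique molecular identifiers, each counting 1 captured transcript), and a UMI for at least 3 of Ccna1, Aurka, Nek2 and Cdc25c. The summed UMI of these 4 genes also had to be at least that of the spermatocyte genes Pou5f2 and Piwil1 and above that of the spermatid genes Acrv1, Spaca1, Lyzl1 and Lyzl6. Barcodes with a UMI of the spermatogonial gene Dmrt1, or with 4% or more of their UMI in Tnp1, Tnp2, Prm1 and Prm2, the transition protein and protamine genes, were left out. All members were chosen by measured values, so every difference between gates given here is a description, with no test.

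The cells came from whole testes, freed with enzymes and counted by droplet-based single-cell RNA sequencing of 3' ends. Per the labels, 2 samples came from Phf7 tKO mice, whose genotype is Stra8-Cre:Phf7 f/f, and 2 from Phf7 f/f mice, all C57BL/6 at postnatal day 63. Both groups carry the floxed Phf7 allele, Cre runs from the Stra8 promoter, which is active in germ cells entering meiosis, and the labels give no Cre-only control and do not say whether samples were separate animals. The deposited matrix joins the 4 libraries under barcode suffixes 1 to 4, and no label or header ties a suffix to a sample, so the genotypes were not compared, suffixes were not taken as replicates, and no p-value is given.

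The division gate was set beside a pair of neighbouring gates built with the same limits on Dmrt1 and on protamine RNA. The pachytene-diplotene gate (410 barcodes) holds barcodes in which Pou5f2 and Piwil1 led, and the round spermatid gate (5122 barcodes) those in which Acrv1, Spaca1, Lyzl1 and Lyzl6 led, in each case with at least 3 UMI. Levels are given as CPM, the UMI of a gene per 1000000 UMI summed over a gate. A gene with at least 50 UMI over both gates was called higher or lower when the pooled levels differed at least 2-fold and the direction was the same in all 4 suffixes. Intervals after log2 ratios are exact 95% intervals for counting error only. Bulk-like sums of this kind cannot tell fewer expressing cells from less RNA per cell. Both comparisons share the division gate.

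In the first meiotic division homologous chromosomes separate, and in the second the sister chromatids do. Late spermatocytes of the mouse hold their chromosomes paired by the synaptonemal complex through pachytene, take the complex apart in diplotene, and then enter the divisions as cyclin-dependent kinase 1 (CDK1) bound to a cyclin becomes active. Cyclin A1, made by Ccna1 in male germ cells, is needed for that entry in mice, aurora kinase A (Aurka) and NEK2 act at centrosomes, and CDC25C is a phosphatase that removes the inhibitory phosphates of CDK1.

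The rule genes themselves describe the gate. Ccna1 had 453 CPM in the division gate, 36.4 CPM in the pachytene-diplotene gate and 164 CPM in the round spermatid gate, and Aurka had 602, 171 and 107 CPM in the same order. Nek2 followed with 316, 175 and 37.5 CPM. Cdc25c, in contrast, had 15.4 CPM in the division gate, 1.45 CPM in the pachytene-diplotene gate and 30.8 CPM, its highest of the 3, in the round spermatid gate. Of the genes that set the pachytene-diplotene gate, Piwil1 had 123, 612 and 13.3 CPM in the same order. Pou5f2, however, had 167, 102 and 4.96 CPM, so it was highest in the division gate. Members with all 4 markers numbered 211, and of the 812 with 3 markers 769 lacked Cdc25c, so membership rested mostly on Ccna1, Aurka and Nek2. The summed marker count of a member ranged from 3 to 275 UMI, with a median of 13. Just outside the rule, 953 barcodes had 2 of the 4 markers and met everything else. Their median depth was 1910 UMI, against 7110.5 UMI for members with 3 markers and 24640 UMI for members with 4. Just inside the limit on protamine RNA lay 15 members with 3 to under 4%, and just outside it 24 barcodes with 4 to under 5%. A further 37 barcodes failed through a Dmrt1 UMI alone and 12 through mitochondrial RNA alone.

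Members were unevenly deep and the gates differed in depth. The median was 8542 UMI and 3108 genes in the division gate, 23554 UMI and 4909.5 genes in the pachytene-diplotene gate, and 3040.5 UMI and 1765 genes in the round spermatid gate. The gates held 22545505, 10329088 and 36726143 UMI in all. Suffixes 1 to 4 gave 191, 273, 301 and 258 members, which were 2.49%, 3.92%, 4.06% and 3.25% of their kept barcodes. Some barcode sequences occurred in more than 1 suffix, 497 in the whole matrix, and 35 members carried one of these, but no sequence belonged to members of 2 suffixes. Doublets were not removed, and 60 members, or 5.87%, had UMI for 2 or more somatic marker genes.

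Plk1, Ccnb1 and Bora, which start the division, were far above the pachytene-diplotene gate, while the list of entry genes as a whole went both ways. Of the 20 tested genes for entry into division, 7 were called higher in the division gate and 5 lower, and their median log2 ratio was 0.26. Of all 10828 genes tested, 2278 (21%) were called higher and 2025 (18.7%) lower, and the median was 0.03. Plk1, the polo-like kinase that activates CDK1 and later steps of division, reached 242, 231, 279 and 203 CPM in suffixes 1 to 4 of the division gate, against 11.3, 11.7, 13.8 and 14.9 CPM in the pachytene-diplotene gate. All suffixes of the division gate lay far above all of the other gate, with a log2 ratio of 4.23 (3.98 to 4.49). Ccnb1, the gene for cyclin B1, had 229, 240.1, 294 and 222 CPM in the division gate, against 21.9, 25.1, 19.9 and 20.9 CPM in the pachytene-diplotene gate. Its ranges did not overlap either, and the log2 ratio was 3.50 (3.31 to 3.69). Bora, the activator of AURKA towards PLK1, rose with them, with 34.3, 37.4, 44.0 and 39.8 CPM in the division gate and 3.44, 6.88, 3.89 and 5.53 CPM in the pachytene-diplotene gate, a log2 ratio of 3.02 (2.61 to 3.46). Cdc25a, another CDK phosphatase, had a log2 ratio of 2.80 (2.52 to 3.10), and Haspin, the histone H3 kinase that places the passenger complex, 1.28. Against the round spermatid gate Plk1, Ccnb1, Bora and Cdc25a had log2 ratios of 0.84, 0.58, -0.51 and 0.56, and none of the 4 was called.

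The start sites of Plk1 and Ccnb1, the named genes with the highest ratios of the entry list, and of the marker genes Aurka and Ccna1 are shown because the first pair rose most and the second pair chose the members. Each window runs from 250 bases before to 50 bases after the start site, 5′ to 3′, as RefSeq gives it on GRCm38.p6, at chr7:122159185-122159484, plus strand for Plk1, chr13:100786437-100786736, minus strand for Ccnb1, chr2:172370521-172370820, minus strand for Aurka and chr3:55055006-55055305, minus strand for Ccna1. Capitals mark CCAAT, the CCAAT box, on either strand. They also mark TTTGAA, the core of the cell cycle homology element, and a MYB site, TAACNG, on either strand.
Plk1: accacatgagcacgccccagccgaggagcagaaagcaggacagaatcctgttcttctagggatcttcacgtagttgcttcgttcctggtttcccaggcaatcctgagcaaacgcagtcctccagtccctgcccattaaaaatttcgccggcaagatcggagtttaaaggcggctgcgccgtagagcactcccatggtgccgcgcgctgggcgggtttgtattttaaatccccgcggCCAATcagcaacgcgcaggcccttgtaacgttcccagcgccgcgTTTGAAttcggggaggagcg
Ccnb1: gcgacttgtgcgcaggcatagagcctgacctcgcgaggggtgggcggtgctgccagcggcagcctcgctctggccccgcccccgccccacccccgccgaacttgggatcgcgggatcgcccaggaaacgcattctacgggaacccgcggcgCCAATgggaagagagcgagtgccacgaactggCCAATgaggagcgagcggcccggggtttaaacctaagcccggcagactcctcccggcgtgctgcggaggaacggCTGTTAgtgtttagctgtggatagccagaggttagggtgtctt
Aurka: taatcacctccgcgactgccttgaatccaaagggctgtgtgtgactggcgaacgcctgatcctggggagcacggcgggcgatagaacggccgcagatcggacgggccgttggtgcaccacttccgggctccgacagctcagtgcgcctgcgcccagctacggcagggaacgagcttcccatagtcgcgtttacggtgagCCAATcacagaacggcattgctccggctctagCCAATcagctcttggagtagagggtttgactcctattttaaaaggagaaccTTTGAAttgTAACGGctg
Ccna1: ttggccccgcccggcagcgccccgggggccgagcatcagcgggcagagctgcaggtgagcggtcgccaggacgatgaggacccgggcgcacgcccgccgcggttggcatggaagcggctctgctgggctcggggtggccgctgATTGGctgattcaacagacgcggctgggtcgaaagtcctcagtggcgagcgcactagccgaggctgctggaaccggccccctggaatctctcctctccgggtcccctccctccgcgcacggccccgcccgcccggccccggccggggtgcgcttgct
Plk1 held 1 CCAAT and 1 TTTGAA, and Ccnb1 held 2 CCAAT and 1 TAACNG. Aurka held 2 CCAAT, 1 TTTGAA and 1 TAACNG, and Ccna1 held 1 CCAAT. Among all 32851 windows of the table, 37.4% held CCAAT, 17.9% TTTGAA and 23.3% TAACNG. The lists for entry, checkpoint, kinetochore and spindle together had windows for 69 of their 81 genes tested against the pachytene-diplotene gate. Of these 77 windows, 63.6% held CCAAT, 49.4% TTTGAA and 20.8% TAACNG. The 17 of 20 genes called higher that had windows held CCAAT in 15 of 18 and TTTGAA in 8, and the 14 of 16 genes called lower held CCAAT in 8 of 16 and TTTGAA in 4. These are matches of letters, and no binding was measured.

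Other entry genes were high in the division and pachytene-diplotene gates and low in the round spermatid gate. Cdk1 had 154, 159, 164 and 117 CPM in suffixes 1 to 4 of the division gate, 89.5, 88.2, 89.5 and 81.7 CPM in the pachytene-diplotene gate and 15.2, 18.7, 19.7 and 16.2 CPM in the round spermatid gate. It was called higher than the round spermatid gate only, with a log2 ratio of 3.10 (2.97 to 3.22), against 0.77 (0.66 to 0.87) over the pachytene-diplotene gate. Fbxo43, whose product EMI2 restrains the anaphase-promoting complex, averaged 19.8 CPM in the pooled division gate, 20.2 CPM in the pachytene-diplotene gate and 0.926 CPM in the round spermatid gate. That gave the highest log2 ratio of the entry list over round spermatids, 4.42 (3.91 to 4.97). Aurkb and Aurkc, the catalytic subunits of the chromosomal passenger complex, stood out from both neighbours. Aurkb had 34.0, 47.6, 39.9 and 28.9 CPM in the division gate, 3.13, 10.1, 2.59 and 6.81 CPM in the pachytene-diplotene gate and 4.12, 4.55, 6.86 and 4.60 CPM in the round spermatid gate. Every suffix of the division gate exceeded every suffix of both neighbours, with log2 ratios of 2.79 (2.40 to 3.20) and 2.94 (2.71 to 3.18). Aurkc, the germ cell form, had ratios of 1.21 and 1.67. With each barcode given the same weight, the Aurkc ratio over the pachytene-diplotene gate was 0.98 and no longer reached 2-fold.

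The small CDK subunits ran the other way. Cks2 had 368, 366, 276 and 403 CPM in the division gate, 1331, 1199.9, 1293 and 1252 CPM in the pachytene-diplotene gate and 30.5, 44.1, 33.7 and 28.7 CPM in the round spermatid gate. It was called lower than the pachytene-diplotene gate (-1.86 (-1.90 to -1.82)) and higher than the round spermatid gate (3.36 (3.27 to 3.44)), a step down at each stage. Cks1b (-2.67), Cdk2 (-1.30), the PP2A inhibitor gene Arpp19 (-1.36) and the CDK1-inhibiting kinase gene Pkmyt1 (-1.16) were the other entry genes called lower than the pachytene-diplotene gate. Ccnb2, for cyclin B2, differed little, with 314 CPM in the pooled division gate, 258 CPM in the pachytene-diplotene gate and 264 CPM in the round spermatid gate. The mitotic cyclin gene Ccna2 had 31 UMI in all members and Ccnb3 had 1, so neither could be placed. Over the round spermatid gate, 7 of 22 entry genes were called higher and 1 lower, with a median of 0.57, while 3685 of all 13192 genes tested (27.9%) were called higher and 4430 (33.6%) lower, with a median of 0.20. The one called lower was Mos, the kinase known for arresting eggs in the second division, at -4.26. Centring both gates on the median gene moved the whole comparison to 3050 higher and 4651 lower calls, so that the share of calls that were higher was 39.6% in place of 45.4%. In barcodes of at least 15000 UMI alone the balance turned, with 4069 genes higher and 3649 lower, while barcodes under that depth gave 2288 higher and 3334 lower.

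**Figure D1:**
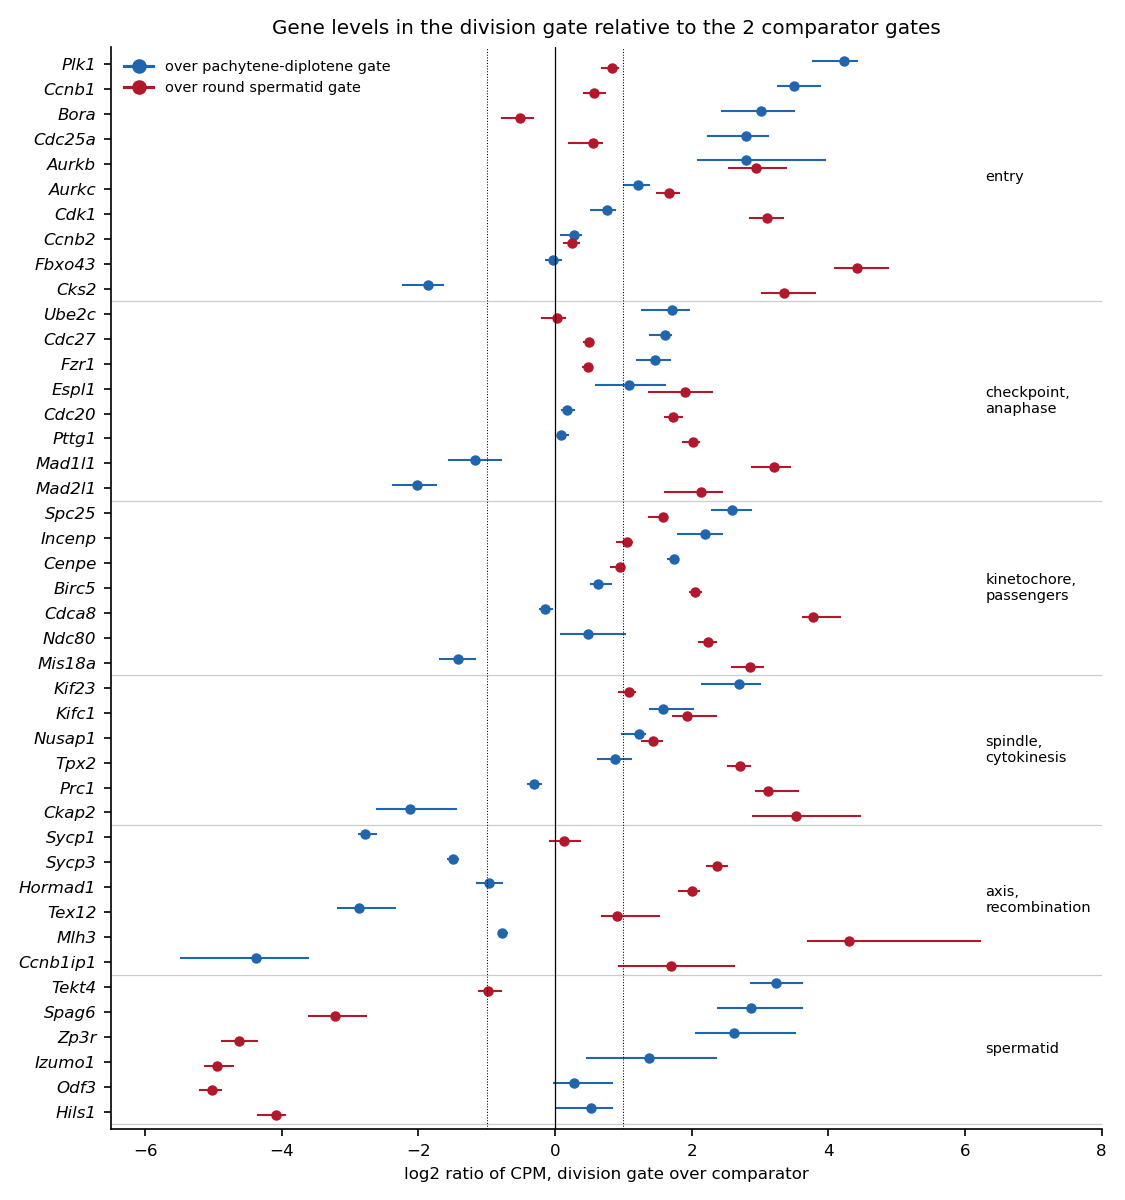
Log2 ratio of CPM in the division gate over the pachytene-diplotene gate (blue) and over the round spermatid gate (red) for genes of 6 groups; points are pooled values, lines run from the lowest to the highest suffix with counts in both gates, and dotted lines mark 2-fold. Plk1, Ccnb1, Bora and Cdc25a lie far to the right of 0 in blue alone, Aurkb, Spc25 and Kifc1 in both colours, and synaptonemal complex genes to the left in blue.

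The machinery that reads and cuts chromosome attachment was mostly present in the division and pachytene-diplotene gates and separated them from the round spermatid gate. Of 19 genes of the spindle checkpoint and anaphase, 5 were called higher than the pachytene-diplotene gate and 4 lower (median 0.07), near the 21% and 18.7% of all genes. Of 18 tested against the round spermatid gate 11 were higher and 2 lower (median 1.73), where all genes gave 27.9% and 33.6%. Ube2c, the ubiquitin-conjugating enzyme of the anaphase-promoting complex, had 62.6, 83.4, 71.0 and 63.4 CPM in the division gate, against 26.0, 21.4, 21.2 and 16.6 CPM in the pachytene-diplotene gate, a log2 ratio of 1.71 (1.51 to 1.92). Its suffix ranges did not overlap, while against the round spermatid gate it was at 0.03. Cdc27 and Anapc10, subunits of that complex, and Fzr1, one of its activators, had ratios of 1.61, 1.42 and 1.46 over the pachytene-diplotene gate. Espl1, for separase, which cuts cohesin, was called higher than both neighbours, at 1.08 and 1.90. Its inhibitor gene Pttg1 (securin) and the activator gene Cdc20 were level with the pachytene-diplotene gate, at 0.09 and 0.18, and were called higher than the round spermatid gate, at 2.01 and 1.73. The checkpoint genes Mad1l1 and Mad2l1 were called lower than the pachytene-diplotene gate (-1.17 and -2.02) and higher than the round spermatid gate (3.21 and 2.14). Sgo2a, for the shugoshin that shields centromeric cohesin in meiosis, was at 0.33 over the first and 3.03 over the second.

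At the kinetochore, 3 of 17 genes were called higher than the pachytene-diplotene gate and 3 lower (median -0.16), near the 21% and 18.7% of all genes. Against the round spermatid gate 12 of 18 were called higher and 1 lower (median 1.88), beside 27.9% and 33.6% of all genes. Spc25, a subunit of the NDC80 complex that grips microtubules, had 86.1, 100.2, 97.0 and 71.0 CPM in the division gate, 15.3, 13.8, 15.6 and 14.5 CPM in the pachytene-diplotene gate and 27.8, 32.2, 31.9 and 27.5 CPM in the round spermatid gate. It was the highest of the list over the pachytene-diplotene gate, at 2.59 (2.35 to 2.84). Incenp, the scaffold of the passenger complex, followed with 94.2, 86.0, 106 and 83.1 CPM in the division gate and 17.5, 24.7, 19.5 and 20.01 CPM in the pachytene-diplotene gate, at 2.19 (1.98 to 2.40). The other passenger genes moved differently, since Birc5 was at 0.64 and Cdca8 at -0.14 over the pachytene-diplotene gate, both under 2-fold. Over the round spermatid gate Cdca8 was at 3.78 (3.67 to 3.90), the highest of this list, and Birc5 at 2.05. Cenpe, a kinetochore motor, had 1.74 and 0.95. Bub1, which belongs to the checkpoint list as well, was called lower than the round spermatid gate, at -1.20.

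Spindle and cytokinesis genes showed 5 of 26 called higher and 4 lower than the pachytene-diplotene gate (median 0.31), near the 21% and 18.7% of all genes. Over the round spermatid gate 13 of 26 were higher and 2 lower (median 0.97), beside 27.9% and 33.6% of all genes. Kif23, a motor of the midzone between separating chromosomes, had 57.3, 51.7, 59.0 and 43.6 CPM in the division gate and 7.83, 7.69, 7.35 and 9.79 CPM in the pachytene-diplotene gate, without overlap, and a log2 ratio of 2.69 (2.37 to 3.03). Kifc1, a minus-end motor, Kif18a and Kif22, motors that act on chromosome position, and the spindle gene Nusap1 were at 1.58, 1.45, 1.33 and 1.23. Prc1, which bundles midzone microtubules with KIF23's complex, was at -0.31 over the pachytene-diplotene gate and 3.11 over the round spermatid gate. Ckap2, Ckap5, Kif15 and Pcnt were the genes called lower than the pachytene-diplotene gate. Ckap2 had -2.12 (-2.40 to -1.85) there and 3.53 (2.91 to 4.21) over the round spermatid gate.

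Genes of chromosome pairing were lower in the division gate than in the pachytene-diplotene gate. Of 11 genes of the synaptonemal complex and HORMA group, 9 were called lower and 0 higher, and the median log2 ratio was -1.50. All genes gave 18.7% lower and 21% higher. Sycp1, the transverse filament, had 114, 99.8, 100.1 and 112 CPM in the division gate, against 831, 634, 731 and 690.0 CPM in the pachytene-diplotene gate, a ratio of -2.79 (-2.85 to -2.72). Sycp3, of the chromosome axis, had 262, 254, 252 and 249 CPM in the division gate, 737, 714, 744 and 664 CPM in the pachytene-diplotene gate and 49.6, 50.6, 53.9 and 43.4 CPM in the round spermatid gate. The 4 suffixes lay close together in each gate, and the log2 ratios were -1.50 (-1.55 to -1.45) and 2.37 (2.29 to 2.44). The central element genes differed from one another, with Tex12 at -2.87 and Syce1 at 0.08 over the pachytene-diplotene gate. Over the round spermatid gate 6 of the 11 were called higher and 3 lower, the 3 being Syce2 (-2.68), Syce3 (-1.21) and Trip13 (-1.16). All genes gave 27.9% higher and 33.6% lower there, so the share called lower was near that of all genes.

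For breaks, recombination and crossover, 10 of 17 genes were called lower than the pachytene-diplotene gate and 1 higher (median -1.40). Of all genes 18.7% were called lower and 21% higher. Ccnb1ip1, for the crossover protein HEI10, had 0.959, 1.58, 1.46 and 2.56 CPM in the division gate, against 42.6, 29.1, 35.0 and 31.5 CPM in the pachytene-diplotene gate. It was the lowest of all list genes there, at -4.38 (-4.90 to -3.90), on 38 UMI in the members. Hfm1, Mnd1 and Msh4 lay between -2.31 and -2.18. Mlh3, a mismatch repair family gene that acts at crossovers, was at -0.77 over the pachytene-diplotene gate and 4.31 (3.77 to 4.90) over the round spermatid gate. Tex15, which acts in meiotic repair and piRNA silencing in mice, was the gene called higher, at 3.74 (2.35 to 5.64), but its level was 5.19 CPM in the pooled division gate, 0.387 CPM in the pachytene-diplotene gate and 52.1 CPM in the round spermatid gate. Rec8, for the meiotic cohesin subunit that separase cuts, likewise had 8.78 CPM in the division gate, 1.84 CPM in the pachytene-diplotene gate and 96.3 CPM in the round spermatid gate. In the cohesin and condensin list, 3 of 14 genes were called higher than the pachytene-diplotene gate, near the 21% of all genes, and 1 lower. Against the round spermatid gate 6 of 14 were higher and 4 lower, where 27.9% and 33.6% of all genes were called. Over round spermatids the condensin genes Ncapd3 (2.90), Ncaph (2.66), Ncapd2 (2.09), Smc4 (1.70) and Ncapg (1.48) and the topoisomerase gene Top2a (1.73) were higher, and the cohesin genes Rec8 (-3.45), Rad21 (-3.14), Smc3 (-2.28) and Smc1a (-1.30) lower. Of 14 piRNA pathway genes, 7 were lower and 1 higher than the pachytene-diplotene gate (median -0.97), and 7 were higher and 0 lower than the round spermatid gate (median 1.20). Tdrd5 showed both, at -2.27 and 3.55.

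Genes of the future sperm mostly lay between the levels of both neighbours, and some were close to the free RNA level given further on. Of 18 acrosome genes, 11 were called higher than the pachytene-diplotene gate and 0 lower (median 1.23), and 2 were higher and 8 lower than the round spermatid gate (median -0.38). Tekt4, a tektin of the flagellum, had 384, 398, 457 and 376 CPM in the division gate, 31.3, 54.6, 46.7 and 44.3 CPM in the pachytene-diplotene gate and 833, 789.6, 787 and 796 CPM in the round spermatid gate. Its ratio was 3.23 (3.09 to 3.37) over the first and -0.98, not called, over the second. Spag6, of the central pair of the axoneme, was at 2.87 (2.55 to 3.20) and -3.22 (-3.30 to -3.14). Zp3r and Izumo1, acrosomal proteins of sperm and egg contact, had 20.2 and 9.31 CPM in the pooled division gate, 3.29 and 3.58 CPM in the pachytene-diplotene gate, and 500.1 and 288 CPM in the round spermatid gate. Among barcodes under 15000 UMI the Izumo1 ratio over the pachytene-diplotene gate was 0.36, against 1.38 over all. For the flagellum and axoneme the counts were 6 higher and 0 lower of 20 against the pachytene-diplotene gate (median 0.68), and 1 higher and 9 lower against the round spermatid gate (median -0.73). All genes gave 21% higher and 18.7% lower in the first comparison, and 27.9% and 33.6% in the second. Odf3, of the outer dense fibre group, was at 0.28 and -5.03, and the linker histone genes Hils1 and H1fnt, which spermatids use, were at 0.53 and 0.08 over the pachytene-diplotene gate and -4.09 and -4.04 over the round spermatid gate. Hist1h1t, for the testis linker histone of spermatocytes, had a log2 ratio of -1.57 over the pachytene-diplotene gate, on 66 UMI in the members. The histone list had 5 of 11 genes lower and 0 higher than the pachytene-diplotene gate, led by H3f3b at -2.34 (-2.37 to -2.31).

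Of 15 genes of meiotic and spermatid transcription, 4 were called higher than the pachytene-diplotene gate, a share near the 21% of all genes, and 0 lower. These were Nutm1, a testis gene that acts on histone acetylation in spermatids (3.43), the TFIID relatives Taf7l (2.27) and Tbpl1 (1.13), and Ovol2 (1.66). Mybl1, for A-MYB, the activator of pachytene genes, had 39.6, 37.9, 47.2 and 32.3 CPM in the division gate, 55.1, 46.9, 53.6 and 53.2 CPM in the pachytene-diplotene gate and 5.70, 5.80, 7.61 and 6.27 CPM in the round spermatid gate. It was called higher than the round spermatid gate alone, at 2.64 (2.43 to 2.86). Crem, a transcription factor gene needed in spermatids, was at 0.70 and -0.95, under 2-fold both times. Against the round spermatid gate 6 of 17 transcription genes were higher and 7 lower, beside 27.9% and 33.6% of all genes. In translation control, 2 of 17 genes were lower than the pachytene-diplotene gate, one of them Dazl (-2.90 (-3.06 to -2.74)), and Papolb, a cytoplasmic poly(A) polymerase of the testis, was higher (1.63). These are smaller shares than the 18.7% lower and 21% higher of all genes. Boll, needed for the divisions in flies and for spermatids in mice, was at -0.38 and 0.76, and Hspa2, a testis chaperone known to assist CDK1 in mice, at -0.28 and 0.72. Among metabolic genes Aldoart1 (2.46), Pgk2 (2.01) and Hk1 (1.34) were higher than the pachytene-diplotene gate and Cyct lower (-1.21), of 13 tested. The share called higher was near the 21% of all genes.

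Over all genes with at least 500 UMI, the 10 highest against the pachytene-diplotene gate ran from 4.50 to 5.50. Hspb7, a small heat shock protein gene, had 43.1, 40.1, 43.7 and 32.1 CPM in the division gate and 0.626, 1.62, 0 and 1.28 CPM in the pachytene-diplotene gate, where it rested on 9 UMI. Ngfr, a nerve growth factor receptor gene, stood at 5.29 (4.30 to 6.50), and Iqca at 5.19. Foxm1, the transcription factor that drives many genes of mitotic entry, had 38.4, 35.0, 37.2 and 30.8 CPM in the division gate and 0.313, 2.02, 1.30 and 2.98 CPM in the pachytene-diplotene gate, a ratio of 4.50 (3.79 to 5.32). No suffix of the pachytene-diplotene gate came near the division gate for these genes. Their choice by size of ratio and common direction favours this, so it is no added support. Gm6370, Gm10354 and Gm6583, also among the 10, lie on chromosome 5 and may share reads with near copies, so their values are uncertain. Hyal1, Rnpep and 1700067K01Rik completed them. The 10 lowest ran from -4.53 for Maz, a zinc finger gene, to -3.47 for Tmed9. Among them Tex101, a germ cell surface protein gene, had 114, 85.8, 89.6 and 112 CPM in the division gate, against 1413, 1132, 1255 and 1194 CPM in the pachytene-diplotene gate, a log2 ratio of -3.67 (-3.74 to -3.61). Its relatives Gml (-3.68) and Gml2 (-3.59) were low as well. Exosc7 (-4.49), of the RNA exosome, Ube2e2 (-4.47), Rpia (-3.93) and Pex7 (-3.88) were others, and Chd3os (-4.29) is an antisense RNA whose reads may not be told apart from those of its partner.

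Over the round spermatid gate the highest were Adrb1, a beta-adrenergic receptor gene, at 6.05 (5.26 to 6.97), then Sap30 (4.75), of the SIN3 histone deacetylase complex, Phf2 (4.70), Ddx51, Bcl2l12, Rfxap, Mllt10, Fam221a, Cdc42ep4 and Alyref (4.44). Mllt10, for a partner of the histone methyltransferase DOT1L, had 569, 539, 426 and 572 CPM in the division gate and 17.8, 28.1, 24.7 and 23.4 CPM in the round spermatid gate. The lowest were transcripts almost missing from the members. 4921509C19Rik had 3 UMI in all members and 61.9 CPM in the round spermatid gate. Trem1 had 1 UMI and Il1rap 2 UMI in the members, against 13.8 and 17.4 CPM in the round spermatid gate, and 6 of the 10 lowest were antisense or intergenic RNAs, which are uncertain where they overlap other genes.

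Within the gate the members could be ordered by the balance of the neighbours' rule genes. In 438 members Pou5f2 and Piwil1 together exceeded the 4 spermatid genes (spermatocyte side), in 176 the sums were equal (even), and in 409 the spermatid genes exceeded (spermatid side). Against the spermatocyte side, the spermatid side had 1725 of 9732 genes (17.7%) called higher and 960 (9.86%) lower, and the median log2 ratio was -0.02. The sides differed in depth, with medians of 5750 UMI on the spermatid side and 23541.5 UMI on the spermatocyte side. The even range was shallower than both, with a median of 4504 UMI and 160 of its 176 members under 15000 UMI. Its markers of Sertoli cells, Leydig cells and macrophages summed to 76.0, 203 and 95.7 CPM. These sums were 6.32, 1.55 and 1.24 CPM on the spermatocyte side and 26.7, 3.03 and 1.51 CPM on the spermatid side. Whether the even range is a stage between the sides was not tested. In members of at least 15000 UMI alone 1321 genes were higher and 1253 lower, without the excess of higher calls, and in members under that depth 596 were higher and 132 lower. The split uses rule genes, so the order is descriptive. Cks2 stood at 457, 184 and 61.9 CPM from the spermatocyte side through even to the spermatid side, and Fbxo43 at 25.0, 13.4 and 5.30 CPM. Both stepped down at each range, and the log2 ratios of the spermatid side over the spermatocyte side were -2.89 (-3.05 to -2.73) and -2.23 (-2.84 to -1.68). Aurkb (44.0, 29.5 and 22.0 CPM) and Mybl1 (44.7, 43.8 and 21.8 CPM) were also lower at the spermatid end, at -1.003 and -1.04. Ccnb1 ran upward, with 401, 459.9, 447 and 427 CPM in suffixes 1 to 4 of the spermatid side, against 182, 172, 227 and 119.6 CPM on the spermatocyte side, a ratio of 1.31 (1.23 to 1.39). Bora and Plk1 shared that direction, with 20.3, 71.6 and 90.3 CPM and 193, 327 and 362 CPM along the order. These are shares of UMI, and the sides differ in depth. Plk1 averaged 7.11 UMI per member on the spermatocyte side and 4.67 UMI on the spermatid side. Ccnb1 averaged 6.48 and 5.64 UMI and Bora 0.749 and 1.17 UMI, so per member only Bora rose. For Ccnb1, Plk1 and Bora the spermatid side stood above both neighbouring gates, as the pachytene-diplotene gate was at 22.0, 12.8 and 4.84 CPM and the round spermatid gate at 166, 134 and 55.9 CPM. Cdk1, in contrast, was highest on the spermatocyte side, at 165, 159 and 95.6 CPM in order.

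**Figure D2:**
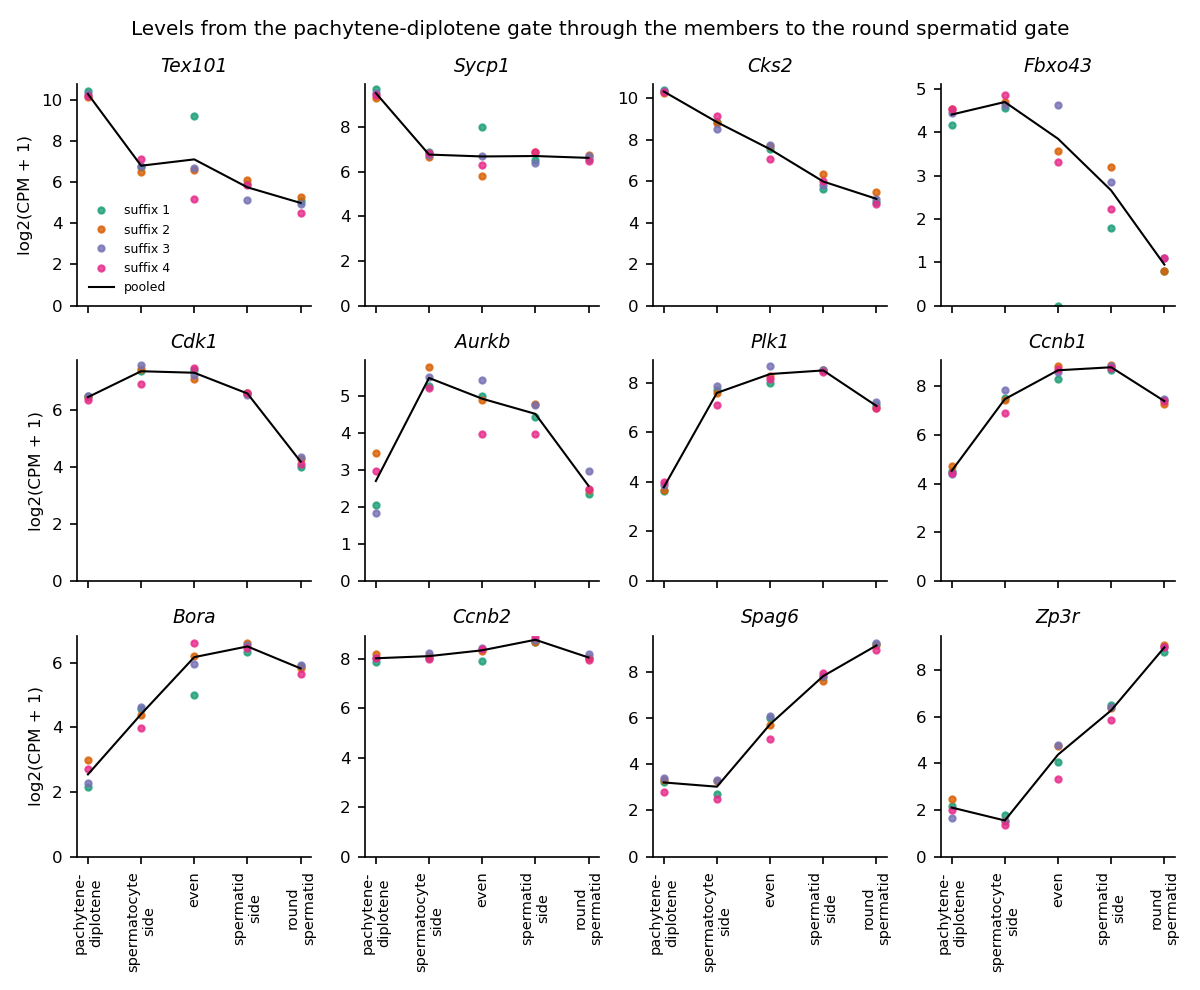
Level of 12 genes as log2(CPM + 1) in the pachytene-diplotene gate, the 3 ranges of the division gate and the round spermatid gate; points are suffixes and lines join pooled values. Tex101 and Sycp1 drop before the members begin, Cks2 and Fbxo43 fall through them, Plk1, Ccnb1 and Bora peak on the spermatid side, and Spag6 and Zp3r climb after the spermatocyte side; single suffixes of the even range scatter widely for Tex101, Sycp1 and Fbxo43.

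An acrosome and a flagellum gene had the highest ratios among list genes on the spermatid side. Zp3r had 89.6, 82.9, 83.7 and 56.7 CPM on the spermatid side and 2.48, 1.86, 1.91 and 1.54 CPM on the spermatocyte side, a log2 ratio of 5.31 (4.78 to 5.89), and Spag6 was at 4.97 (4.69 to 5.26). Of 20 flagellum genes 10 were called higher and 0 lower, and of 18 acrosome genes 8 were higher and 1 lower. All genes gave 17.7% higher and 9.86% lower in this comparison. Nutm1 (4.87), Rec8 (4.83), Tex15 (4.07), the ion channel gene Catsper1 (3.95) and the X-linked Taf7l (3.75) were high on that side too, and each stayed below its level in the round spermatid gate. Rec8, for example, had 1.11, 11.6 and 31.6 CPM along the order and 96.3 CPM in the round spermatid gate. Over all genes the highest were 4921504E06Rik (5.46), 1700001F09Rik, Prr22, Iqca, Ypel3, BC061237, Spag6, Nudcd2, the kinase gene Hipk4 and 4930579F01Rik (4.89). The lowest included Sap30 (-3.24), the translation initiation gene Eif2b1 (-3.14), Rfxap, Rassf1, Mllt10 (-2.87), Adrb1 and the RNA decay helicase gene Upf1 (-2.83). Of 11 synaptonemal complex genes 0 were called either way, and Sycp1 held 107, 101 and 102 CPM along the order, near the 96.7 CPM of the round spermatid gate. Members of the spermatid side thus carried the highest Plk1, Ccnb1 and Bora shares of UMI together with spermatid transcripts below their round spermatid levels. The gates favour this pattern. A member needed more UMI of the 4 marker genes than of the 4 spermatid rule genes, and the round spermatid gate the reverse. The 4 marker genes alone do not tell spermatocytes from cells past the divisions, and whether a barcode had divided was not measured.

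RNA from the sex chromosomes, which are silenced in pachytene and partly reopened in spermatids, changed along the same order. The X chromosome gave 0.164% of UMI in the division gate, 0.0571% in the pachytene-diplotene gate and 1.25% in the round spermatid gate. Within the members it gave 0.0652%, 0.357% and 0.424% from the spermatocyte side through even to the spermatid side. The even range was the shallowest and the richest in Leydig and macrophage markers. Barcodes gated as Leydig cells and macrophages had 2.54% and 3.02% of UMI from the X chromosome. Their part in the X share of the even range was not tested. In barcodes of at least 15000 UMI the spermatid side had 0.409, 0.348, 0.395 and 0.418% in suffixes 1 to 4, and the spermatocyte side 0.0519, 0.0491, 0.0552 and 0.0410%. In members under 15000 UMI the sides were closer, with 0.496% pooled on the spermatid side and 0.2496% on the spermatocyte side. In the deep barcodes all suffixes of the spermatid side lay above all of the spermatocyte side, and below the round spermatid gate at that depth, which had 1.25, 1.32, 1.18 and 1.29%. Y-linked RNA was scarcer, with 0.00185%, 0.00957% and 0.021% along the order. Among X-linked housekeeping genes 11 of 13 tested were called lower than the round spermatid gate and 0 higher (median -1.80), led by the ubiquitin-activating enzyme gene Uba1 at -4.45 (-4.99 to -3.95). All genes gave 33.6% lower and 27.9% higher in that comparison. Against the pachytene-diplotene gate 3 of 5 were called higher, beside 21% of all genes, but all 17 together summed to 25.1 CPM in the members.

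**Figure D3:**
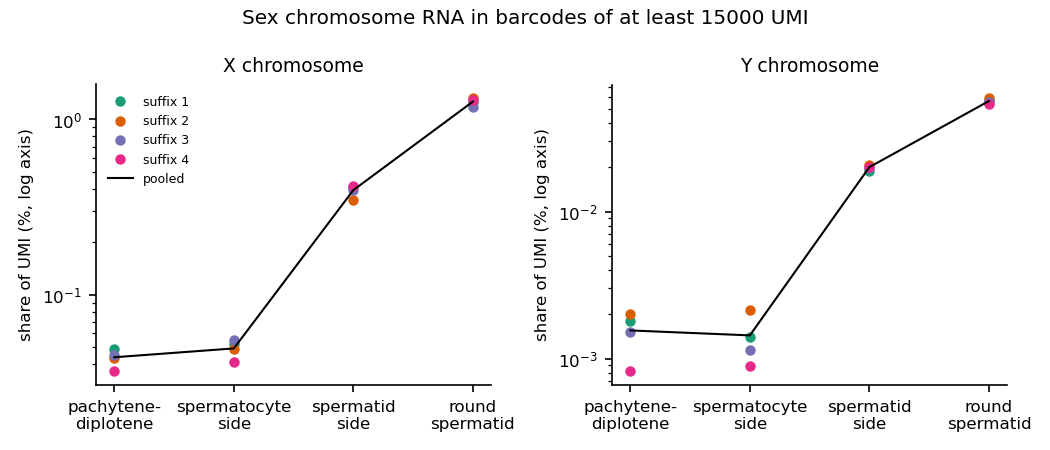
Share of UMI from genes of the X (left) and Y (right) chromosome, in percent on log axes, for barcodes of at least 15000 UMI in the pachytene-diplotene gate, on the spermatocyte and spermatid sides of the division gate, and in the round spermatid gate; points are suffixes and lines pooled values. Both shares are low up to the spermatocyte side, and the X share is 0.0493% there and 0.395% on the spermatid side.

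Depth and mitochondrial RNA split the members further. Members under 15000 UMI numbered 634, with a median of 4624.5 UMI and 3.05% mitochondrial UMI, and those at or above it 389, with a median of 41391 UMI and 0.711%. The spermatocyte side held 263 of the deep members, the even range 16 and the spermatid side 110. Against the deep members, the shallow ones had 1781 of 9915 genes (18%) called higher and 211 (2.13%) lower, and the median log2 ratio was 0.17. Hspa5, for the main chaperone of the endoplasmic reticulum, had 1599, 2287, 1879.9 and 1848 CPM in suffixes 1 to 4 of the shallow members, against 567, 568, 565 and 468 CPM in the deep ones. Its groups did not overlap, and 7 of 12 chaperone genes were called higher and 0 lower in the shallow members (median 1.07). Spermatid genes were higher there as well, with 10 of 18 acrosome genes called higher and 0 lower (median 1.38), and so were Smcp, for a mitochondrial capsule protein of sperm, at 2.53 (2.46 to 2.60), Lelp1, Cypt12 and Cypt4. The RNA-storage genes Ybx2 (-1.61 (-1.68 to -1.55)) and Ybx3 (-1.16), the transcription factor gene Tcfl5 (-1.23) and the kinetochore gene Meikin (-1.15) were lower. The division genes varied less, Plk1 being at 0.39, Ccnb1 at 0.57, Cdk1 at -0.15 and Aurkb at 0.08. Of 26 spindle genes 0 were called in either direction.

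**Figure D4:**
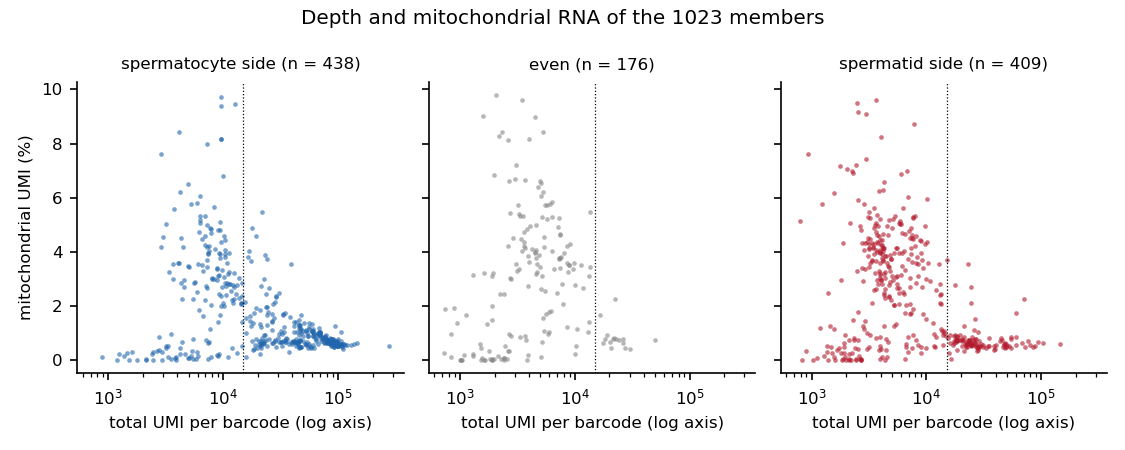
Mitochondrial share of UMI (percent) against total UMI (log axis) for each member, by range of the division gate; the dotted line marks 15000 UMI. Most deep members sit below 2%, and the shallow ones spread up to the limit of 10%.

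Markers of other cells moved with depth, and their part in these differences was not tested. The 6 Sertoli markers, all with UMI in the members, summed to 58.9 to 109 CPM over the suffixes in members under 15000 UMI and 1.98 to 3.15 CPM in the deeper ones. The 5 Leydig markers summed to 4.66, 4.21, 6.34 and 273 CPM in suffixes 1 to 4 of the shallow members and to 0.590 to 2.19 CPM in the deeper ones. The 5 macrophage markers summed to 1.55, 116, 3.62 and 2.42 CPM and to 0.567 to 1.38 CPM. High sums thus came from suffix 4 alone for Leydig markers and from suffix 2 alone for macrophage markers. One gene of these lists rested on few barcodes, since 1 member of suffix 4 held 95 of the 118 UMI of the steroid enzyme gene Cyp17a1, and without suffix 4 the Cyp17a1 ratio over the pachytene-diplotene gate was 0.52, against 3.17 with it. Endothelial (4 genes, Cdh5 at 0), peritubular myoid (3) and spermatogonial (5) markers summed to 0.808 to 2.88, 2.21 to 3.84 and 6.62 to 11.6 CPM over the suffixes of the division gate. The 5 early meiosis markers, led by Tex101, summed to 92.0 to 122 CPM in the division gate and 1157 to 1431 CPM in the pachytene-diplotene gate. The pairs of round and elongating spermatid markers outside the rule summed to 76.8 to 112 and 284 to 319.9 CPM in the division gate, and 1103 to 1184 and 2321 to 2747 CPM in the round spermatid gate. Free RNA was visible in somatic droplets. Prm2 averaged 21.6 UMI per member, 31.7 UMI per barcode in a gate of Leydig cells (median depth 6986 UMI) and 42.6 UMI in a gate of macrophages (median 2452 UMI). Transition protein and protamine genes had median shares of 0.399%, 0.407% and 1.14% of UMI in these gates. Their pooled shares were 0.220%, 1.05% and 3.10%. The somatic means may thus rest on part of the barcodes, and whether members lay below that background was not tested. Members had to be under 4% for transition protein and protamine genes, and the somatic gates had no such limit. The rule itself therefore favours lower values of these genes in members. Spermatid transcripts were near that background in part of the members. Hils1 averaged 2.36 UMI per member, 1.60 UMI in the Leydig gate and 1.99 UMI in the macrophage gate, and Smcp 6.65, 5.90 and 6.97 UMI. Zp3r averaged 0.983 UMI on the spermatid side and 0.0708 UMI on the spermatocyte side, against 0.0599 and 0.152 UMI in the Leydig and macrophage gates. Spag6 had 2.88 and 0.263 UMI on these sides, against 0.173 and 0.384 UMI. Plk1 and Ccnb1 averaged 5.27 and 5.47 UMI per member, against 0.0853 and 0.0829 UMI in the Leydig gate.

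In barcodes of at least 15000 UMI alone, Plk1 and Ccnb1 were again higher and Cks2 lower in the members than in the pachytene-diplotene gate. Plk1 had 228 CPM in the members and 10.9 CPM in the pachytene-diplotene gate, Ccnb1 231 and 18.7 CPM, and Cks2 375 and 1259 CPM. The ratio of Ccna2, on its 31 UMI in the members, was 0.13 at that depth, against 1.51 over all barcodes.

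Phf7, the gene the study targets, varied most between libraries after Cyp17a1 among list genes. PHF7 is a PHD finger protein of male germ cells, and BRDT a bromodomain protein that reads acetylated histones. In suffixes 1 to 4 Phf7 had 149.6, 730.5, 1149 and 205 CPM in the division gate, 237, 1066, 1384 and 330.3 CPM in the pachytene-diplotene gate and 79.0, 413, 829 and 115 CPM in the round spermatid gate. Suffix 3 was highest and suffix 1 lowest in all 3 gates. The log2 ratios of the pooled division gate were -0.25 and 0.82 over these neighbours, and Brdt was at -0.44 and 0.22. Brdt differed little between suffixes, with 170.4, 173, 158 and 169 CPM in the division gate. Phf7 averaged 13.3 UMI per member and 0.279 UMI in the Leydig gate. Since no label maps the suffixes, the genotype of a library was not taken from its Phf7 level.

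Most list genes differed little between libraries. Among 200 list genes with at least 100 UMI in 1 suffix, the highest suffix exceeded the lowest by a median of 1.18 times, and 9 in 10 genes stayed within 1.48 times. The CDK1-inhibiting kinase gene Wee1 was lowest in suffix 1, with 6.95, 19.1, 15.5 and 13.8 CPM in suffixes 1 to 4 of the division gate. Tdrd3 was lowest there too, at 14.9, 26.2, 30.6 and 26.8 CPM. Hk1, a hexokinase gene, had 71.9, 108, 74.7 and 124 CPM, with suffixes 2 and 4 above suffixes 1 and 3.

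**Figure D5:**
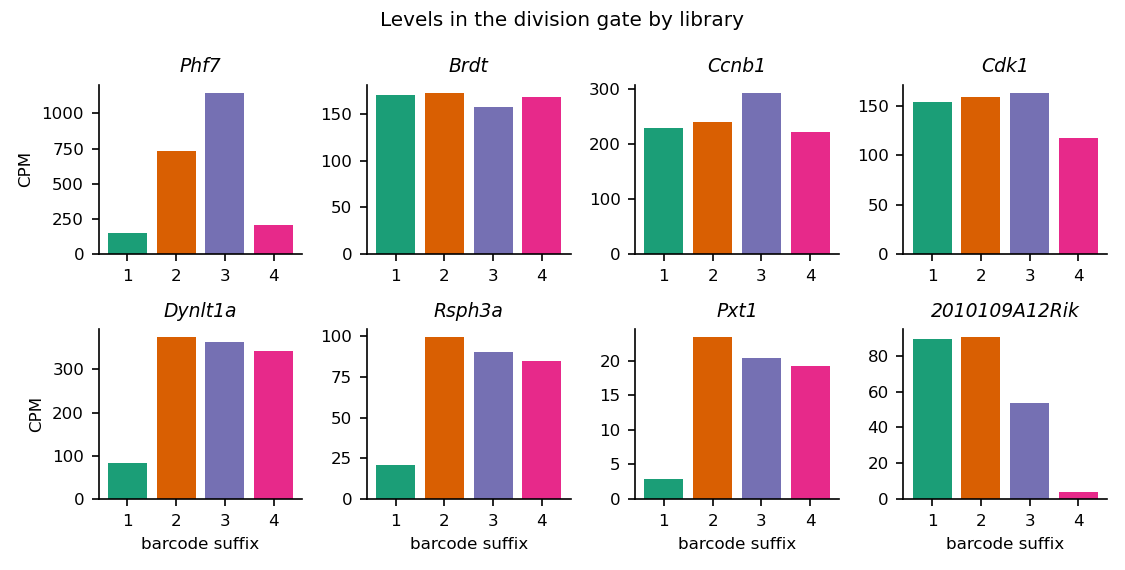
CPM of 8 genes in the division gate for barcode suffixes 1 to 4, each bar starting at 0. Phf7 ranges from 149.6 to 1149 CPM while Brdt, Ccnb1 and Cdk1 are similar across suffixes; Dynlt1a, Rsph3a and Pxt1 are low in suffix 1 and 2010109A12Rik in suffix 4.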

How the data were processed

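Raw UMI counts per gene and barcode were used as deposited, a matrix made with Cell Ranger 3.0.2 per the file headers. Build mm10 and bcl2fastq 2.19.1.403 are named in the submitters' processing notes, and a Chromium 3' kit and 2 Illumina instruments in the labels' protocols. For the annotation no release was stated in labels or headers. In all there were 28692 genes, 32273 barcodes and 190744950 UMI (44447735 to 50353091 per suffix). No doublet caller was applied.

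UMI were summed per gate and divided by the gate's total (Python 3.11.15, numpy 2.4.6, scipy 1.17.1, pandas 2.3.3). A gate at 0 was set to a floor of 3 counts, and no ratio is given where both gates had 3 counts or fewer. Genes of the gate rule were left out. Intervals are exact and cover counting error only, since libraries are not replicates. The ratio step was checked on simulated counts. Positions came from GENCODE M21 on GRCm38, which held 28416 of the 28692 gene IDs.

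The genes named for each comparison were the 12 highest and 12 lowest list members and the 10 highest and 10 lowest of all genes with at least 500 UMI, moving the same way in every suffix, plus a set of regulators named in every comparison. For genes chosen by ratio, suffix ranges without overlap are favoured by the choice and only describe the genes. Further list members give context and were named after their values were seen. The members, lists and comparisons were chosen with earlier results of these data known. A planned genotype test (edgeR on counts) was not run, because no suffix could be mapped. Rnf212b, Iho1 and Shoc1 were not matched by symbol. Alternatives changed the filters, the number of markers, the fold, the depth, the weighting and the suffixes used.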

Additional observations from a re-analysis of the deposited data

Results flagged for a closer look

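Among 60 values tested over the 4 suffixes, 1 stood apart. Fam221a had 60.1 CPM in suffix 2 of the division gate, against 48.4, 48.8 and 48.9 CPM in suffixes 1, 3 and 4. Its gap to the nearest suffix filled most of the range, and chance marks about 1 value in 20 in this way.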

How the results depend on the processing

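The share of kept barcodes in the division gate, 3.41%, was 5.45% with at least 1000 genes required, 0.704% with 4 of 4 markers, 6.59% with at least 2 of 4, and 3.70% once barcodes with 2 or more somatic markers were left out; leaving out each suffix in turn gave 3.20 to 3.73%. At 3-fold, 1378 genes were higher and 990 lower than the pachytene-diplotene gate, and 2056 higher than the round spermatid gate. Among barcodes under 15000 UMI, 1046 were lower than the pachytene-diplotene gate and 2288 higher than the round spermatid gate, and for the order within the gate 596 were higher and 132 lower on the spermatid side. Weighting members equally gave 639 lower on that side. The cause of these shifts was not tested. Leaving out each suffix in turn gave 2043 to 2181 higher and 1798 to 1971 lower than the pachytene-diplotene gate, 3522 to 3660 higher and 4106 to 4259 lower than the round spermatid gate, and 1508 to 1639 higher and 809 to 985 lower on the spermatid side. The remaining counts stayed within 1.5 times. Among named genes, Aurkc, Izumo1, Cyp17a1, Ccna2 and Ccnb3 fell under 2-fold in some setting, and Ccnb3, with 1 UMI in the members, was at -1.30 over round spermatids and at 0.52 with at least 2 of 4 markers. No paired analysis was possible because the suffixes carry no replicate number or genotype. The rule needs UMI of low genes, so shallow barcodes are missed, and undetected doublets remain.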

Other observations

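Several genes were low in suffix 1 in all 3 gates, and 4 of them lie on chromosome 17. Dynlt1a, for a dynein light chain, had 82.9, 374, 363 and 342 CPM in suffixes 1 to 4 of the division gate, 49.5, 270.2, 249 and 267 CPM in the pachytene-diplotene gate and 45.3, 207, 213 and 186 CPM in the round spermatid gate. Rsph3a, for a radial spoke protein of the axoneme, had 20.6, 99.2, 90.1 and 84.5 CPM in the division gate. Its near copy Rsph3b had 6.23, 27.8, 24.6 and 19.5 CPM, and reads may be split between the pair. Pxt1, a testis gene of the peroxisome, had 2.88, 23.3, 20.4 and 19.1 CPM. Speer1, on chromosome 5, had 6.23, 28.7, 22.1 and 25.1 CPM, and Gm26661, on chromosome 14, 2.64, 16.1, 11.2 and 11.3 CPM. In the division gate the other suffixes were, for each of these genes, at least 3 times the level of suffix 1.

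A different library was low for 2010109A12Rik, on chromosome 5, which had 89.2, 90.2, 53.5 and 4.10 CPM in the division gate and 40.1, 61.9, 26.4 and 3.41 CPM in the pachytene-diplotene gate. 4930470P17Rik, on chromosome 2, was high in suffixes 1 and 2 and low in 3 and 4, with 34.3, 41.2, 12.6 and 9.92 CPM. Neither pattern follows that of Phf7. These genes were named after their values were seen.

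Some transcripts came mostly from single members. Of 415 UMI of Gstm1, a glutathione transferase gene, in suffix 4 of the division gate, 384 came from 1 member. Gstm2 (158 of 166 UMI), Akr1cl (93 of 100) and Lcn2 (101 of 114) followed the same form there, and 124 UMI of Apoe lay in 1 member.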
